A study of Mus musculus with 4 samples.

Results

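The induced and the KO array are the 2 mutant arrays of a series of 4, and they are compared here along chromosomes 1 to 19, in windows of 200 kb. Both arrays measured replication timing in mouse embryonic fibroblasts, connective tissue cells grown from mouse embryos. In the KO cells, SUV4-20H1, a floxed allele, is labelled as deleted. The treatment protocol, listed for all 4 samples, brings that deletion about by 24 hours in 1 mM 4-hydroxytamoxifen. The induced cells are labelled an induced suv4-20h mutant, with no statement of what was induced or how. The control array (labelled control, with no allele named and no treatment beyond that shared protocol) and the non-induced array (the same mutant without induction) are the references. Every group is 1 array of 1 cell sample, so the spread between cultures is unknown and groups could not be tested against each other. The labels give 1 cell line name to all 4 arrays, while the growth protocol gives a line of another number. KO and control lay on slide 1, and induced and non-induced on slide 2, so slide and cells cannot be told apart in a direct comparison of induced with KO.

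Suv4-20h enzymes are histone methyltransferases that add methyl groups to lysine 20 of histone H4. Mammalian DNA is copied in large domains, each at a typical time in S phase. Early domains are usually gene-rich and transcribed, and late domains are usually gene-poor and compact. Changes of replication timing during development typically involve whole domains.

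Cells were labelled with BrdU (50 µM for 1 hour), a nucleotide analogue built into new DNA, and 80000 cells were collected by sorting, from early and from late S phase. Early DNA carried Cy3 and late DNA Cy5, with no dye swap. Timing is log2 of the early signal divided by the late one, centred on the autosomal median of each array, so a positive value is earlier than the median probe. A window's timing is the mean of its probes. The autosomes held 160967 usable probes in 11314 windows of 5 to 27 probes each, with a median of 15. The standard error (SE) of induced minus KO over the probes of a window had a median of 0.14. Such errors cover the spread of probes on these arrays only. Induced minus KO computed from odd probes and from even probes correlated with r = 0.82 over 10300 windows that had 3 or more of each. These windows share the arrays and are not replicates.

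The arrays differed in more than timing, which touches all results below. Spots well above background in both channels made up 93.1% of autosomal spots on KO and 89.1% on induced, against 94.1% on control and 94.9% on non-induced. The range of window timing (10th to 90th percentile) was 2.32 on KO and 2.70 on induced, and 1.81 and 2.08 on control and non-induced. Of 122 Y chromosome probes, 107 were well above background on KO, but 50 on control, 53 on non-induced and 41 on induced. The median total signal (mean of early and late log2 signal) of X probes relative to autosomes was -0.88 on KO, and -0.44 to -0.38 on the other arrays. Total signal of autosomal windows differed by an SD of 0.45 between induced and KO and 0.50 between KO and control, but by 0.15 between induced and non-induced. The part of these differences in the timing results was not tested, beyond the values given beside them.

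The first question was which domains the mutant states share. Most of the genome stood on the same side of the median on both arrays. After a running mean of 5 windows, 42.3% of windows were early (at or above 0) on KO and 42.4% on induced. Of 11290 windows with a smoothed value, 4237 were early on both and 5966 late on both, together 90.4%. Control and non-induced, the reference pair on the same slides, matched in 88.4%, and induced matched its own reference, non-induced, in 97.8%. KO matched control in 88.4%. Over windows, KO and induced timing had r = 0.87, and the reference pair also had r = 0.87. KO and control had r = 0.85, and induced and non-induced r = 0.96. By these measures, which do not change when an array is scaled by a constant factor, the mutant arrays were about as alike as the reference arrays. They were less alike than the pair on slide 2. In size the differences between the mutants were larger: their SD over windows was 0.51, against 0.39 between the references. The median absolute difference was 0.31 and 0.25. The range of window timing was also wider on KO and induced (2.32 and 2.70) than on control and non-induced (1.81 and 2.08). The part of array range in these larger differences was not tested.

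Shared early domains (runs of at least 5 windows) numbered 267, with a median length of 2.2 Mb, and 36 were over 5 Mb. The longest, of 16.4 Mb, lay at chr11:93800001-110200000 (build mm9, as all coordinates here). Its timing was 0.66 (control), 0.69 (KO), 0.69 (non-induced) and 0.89 (induced). The induced value was the highest of the 4, with a difference from KO of 0.20 ± 0.02 (SE over 1531 probes). The next longest were at chr6:82600001-95000000 (0.69 in KO, 0.88 in induced), chr9:55400001-67600000 (0.78 and 1.07) and chr2:24400001-36200000 (0.76 and 0.99). chr15:74600001-86200000 completed the longest 5 (0.63 and 0.88). In 232 of the 267 shared early domains the induced value was above the KO value. A domain of 9.8 Mb at chr13:28800001-38600000, chosen after its values were seen, went the other way. It stood at 0.44 (control), 0.70 (KO), 0.45 (non-induced) and 0.56 (induced).

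Shared late domains numbered 325, with a median of 2.6 Mb, and 73 were over 5 Mb. The longest, of 19.6 Mb at chr4:12200001-31800000, had timing of -0.83 (control), -1.15 (KO), -0.81 (non-induced) and -1.35 (induced). Both mutant arrays lay below both references there, and induced minus KO was -0.20 ± 0.02 (SE over 963 probes). chr14:80200001-99600000 stood at -0.45, -1.17, -0.59 and -1.10 in the same order of arrays. chr16:58400001-77800000 stood at -0.57, -1.12, -0.78 and -1.27. chr12:36800001-52400000 stood at -0.45, -1.0, -0.77 and -1.22, and chr4:65000001-80600000 at -0.59, -1.13, -0.64 and -1.17. In each of these 5 late domains both mutant values were lower than both reference values. The same held for the mean over all 5966 windows late on KO and induced: -0.56 (control), -0.96 (KO), -0.73 (non-induced) and -1.13 (induced). The 10th percentile of window timing was also lower on both mutants, at -1.39 (KO) and -1.60 (induced), against -0.93 (control) and -1.14 (non-induced). This order was thus not particular to the 5 domains. The part of array range in it was not tested. Of the 325 shared late domains, induced was below KO in 258.

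On the induced array, whose range was wider, most early domains were earlier and most late domains later than on KO. The median difference between induced and KO was 0.20 over shared early and -0.19 over shared late domains. As a whole, few of these domains differed by 0.25 of the KO range, which is 0.58. They were 1 of 267 early and 17 of 325 late ones, 16 of the latter lower on induced. Single windows differed more often, by the calling rule given below. Of 4237 windows early on both arrays, 296 were called higher and 82 lower on induced. Of 5966 late on both, 245 were called higher and 912 lower. Over all windows the shares were 7.4% and 12%.

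The domain edges were partly shared. A boundary is where the smoothed profile crosses 0. The induced array had 691 boundaries and KO 814. Of the induced boundaries, 571 (82.6%) had a KO boundary of the same direction within 2 windows (400 kb). Of the KO boundaries, 573 (70.4%) had an induced one. The reference pair had 845 boundaries on control and 709 on non-induced, with 80.4% of the non-induced ones shared. Induced and non-induced shared 96.8% of the induced boundaries. Shared boundaries fell in the very same window in 37.8% of cases between induced and KO, in 46.1% between non-induced and control, and in 72.9% between induced and non-induced. Where a shared boundary was shifted, the early side reached further on the induced array in 234 cases and on the KO array in 121. The references leaned the same way, with 198 cases further on non-induced and 109 on control. With the median window of each array as the dividing line in place of 0, induced against KO numbered 182 and 127.

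**Figure D1:**
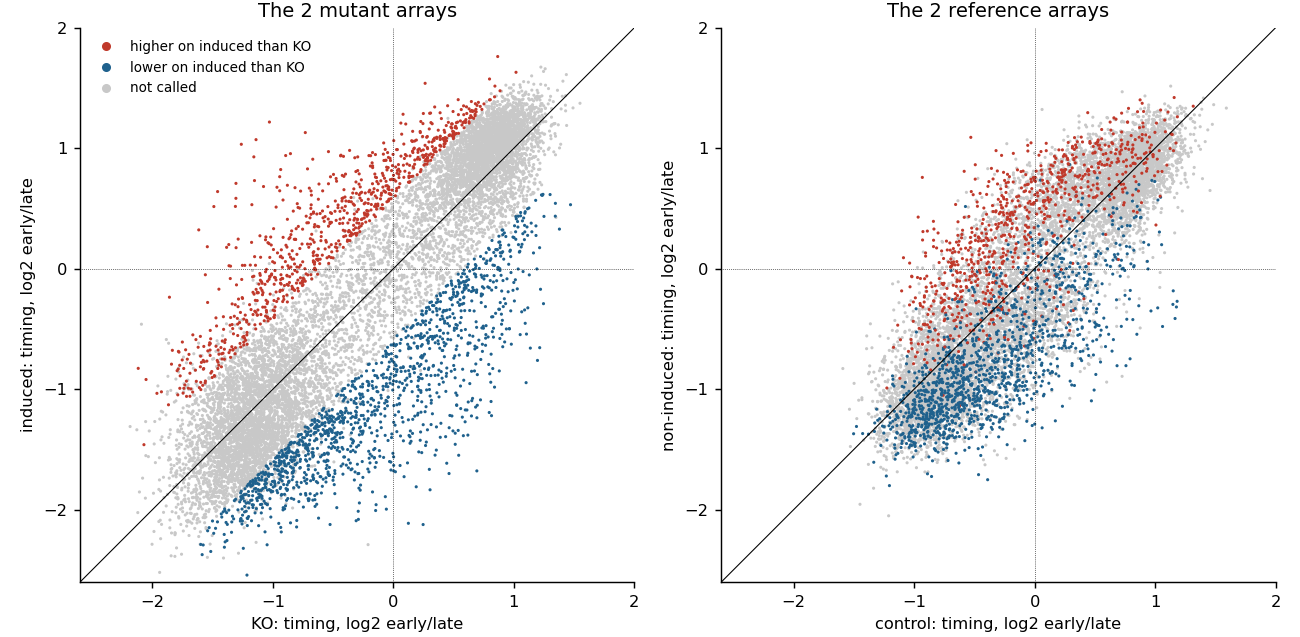
Timing of 11314 autosomal windows of 200 kb, KO against induced (left) and control against non-induced (right), in log2 early over late signal, with the line of equal values and dotted lines at 0. Colours mark windows called higher (837) or lower (1356) on induced than on KO and are the same windows in both plots. On the reference arrays, the windows called higher lie mostly above the line and those called lower mostly below it.

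The second question was where the mutant states differ. A window was called when induced minus KO was at least 0.58 in size and at least 3 times its SE over probes. By this rule 837 windows (7.4%, 167.4 Mb) were higher, meaning earlier, on induced, and 1356 (12%, 271.2 Mb) were lower, meaning later. With each array centred on its median window, the numbers were 1189 and 1052, so the excess of lower windows depends on the centre. The same rule called 970 windows (8.57%) higher and 1189 (10.5%) lower between non-induced and control, with a threshold of 0.45 set by the control range. With thresholds scaled to the KO and control ranges, the shares of windows called were of like size for mutants and references. At a common cutoff they were not: 5.72% of windows differed by 1 or more between the mutants, against 1.59% between the references. That cutoff takes no account of the wider ranges of the mutant arrays. Of the 837 higher windows, 210 also differed in total signal by 0.5 or more, and of the 1356 lower ones 382 did. This was 25.1% and 28.2%, against 20.5% of windows not called.

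A large share of the difference between the mutants was also present between the references. Of the 837 windows higher on induced, 358 (42.8%) were also higher on non-induced than on control, and 8 were lower. Of the 1356 windows lower on induced, 540 (39.8%) were also lower on non-induced, and 5 were higher. As shares of the reference calls, these were 36.9% of the higher and 45.4% of the lower ones. Over all windows, induced minus KO and non-induced minus control, which share no array but span the same slides, had r = 0.55. In the windows called higher, mean timing was -0.07 (control), -0.52 (KO), 0.34 (non-induced) and 0.34 (induced). Both arrays of slide 2 were at the same level there, and KO was below control. In the windows called lower, it was -0.35, -0.14, -0.77 and -1.10 in the same order. There KO was the highest and induced the lowest of the 4.

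The channels behind these windows were examined separately, each relative to its autosomal median. In windows higher on induced, the mean early signal was -0.12 in KO and 0.27 in induced cells, and the late signal 0.33 and -0.07. In windows lower on induced, early signal was 0.11 in KO and -0.53 in induced cells, and late signal 0.19 and 0.57. Since the windows were chosen by the ratio of the channels, the opposite signs of the 2 channels follow in part from that choice. Probes well above background made up 95.8% on KO and 88.0% on induced in the lower windows, and 95.3% and 93.4% in the higher ones.

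Windows on opposite sides of 0 on KO and induced were sorted by the side of the references. Of 1087 such windows (217.4 Mb), 546 were late on KO and early on induced, and 541 the reverse. In 522 of them (48.0%), KO alone differed and the other 3 arrays were on 1 side. In 458 (42.1%), control sided with KO and non-induced with induced, so the arrays split by slide. The induced array alone differed in 74 windows (6.81%), and in the remaining 33 control sided with induced. A reference standing alone cannot occur among these windows: in the whole genome control alone was early in 479 windows and alone late in 234. In the 271 windows where KO alone was early, mean timing was -0.26 (control), 0.28 (KO), -0.47 (non-induced) and -0.56 (induced). In the 251 windows where KO alone was late, it was 0.23, -0.15, 0.53 and 0.52. In the 253 windows late on slide 1 and early on slide 2, it was -0.30, -0.37, 0.29 and 0.30.

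**Figure D2:**
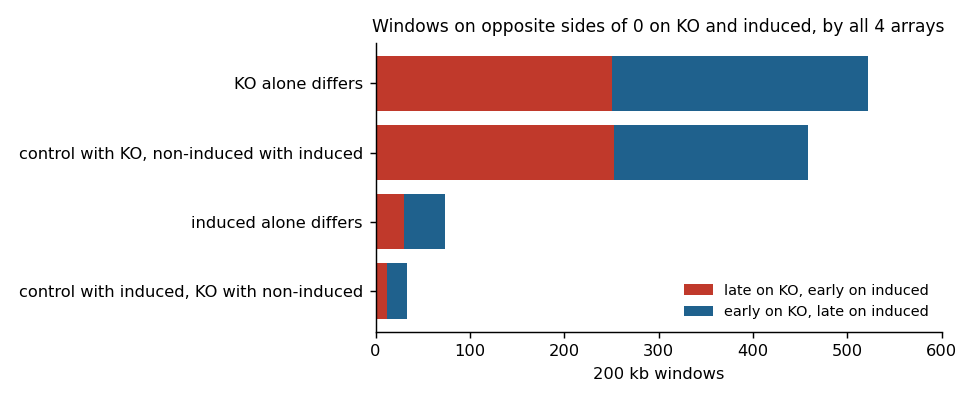
Number of 200 kb windows on opposite sides of 0 on the KO and induced arrays, by how the other arrays side; bars start at 0 and colours give the direction. KO alone differed in 522 windows, arrays split by slide in 458, and induced alone differed in 74.

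Neighbouring called windows of 1 direction (gaps under 1 Mb) formed 382 regions higher and 405 regions lower on induced. Regions with 5 or more called windows numbered 33 and 94, with a longest of 3.8 Mb and 6.0 Mb. The differences below describe regions that were chosen by that same difference, and no test was made on them. Where the difference of the references is taken off below, the remainder still contains the difference used for choosing. Its size follows in part from that choice too. KO and induced stood on opposite sides of 0 in 18 of the 33 and 37 of the 94.

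The largest difference of a region higher on induced was at chr6:100600001-101800000. Timing was -0.07 (control), -0.51 (KO), 0.79 (non-induced) and 0.93 (induced). Both arrays of slide 2 were early and both of slide 1 were below 0. Induced minus KO was 1.43 ± 0.10 (SE over 76 probes), and non-induced minus control was 0.85. The window just left of it, from 100400001, was early on every array, at 0.95, 1.15, 0.89 and 0.98 (control, KO, non-induced, induced). Inside the region, the window from 101200001 stood at -0.49, -1.14, 0.86 and 1.07, and that from 102000001, just beyond it, was late on every array. The early domain thus reached further to the right on both arrays of slide 2. The reference difference taken off induced minus KO left 0.58, just below the threshold before rounding. At chr11:34400001-35800000, timing was -0.11, -0.49, 0.70 and 0.85 in the same order, a difference of 1.34 ± 0.08 (SE over 114 probes). There too non-induced was above control, by 0.80. Total signal in this region was also higher on induced, by 0.61.

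Chromosome 9 held 2 of the 10 largest higher regions, and the references differed by less than their threshold in both. From 22200001 to 24800000, timing was 0.20 (control), -0.64 (KO), 0.46 (non-induced) and 0.59 (induced). From 86400001 to 88400000, it was 0.52, -0.44, 0.61 and 0.63. KO alone was below 0 in both. Within the first, KO stood at -1.61 in the window from 24400001, where induced stood at 0.32, while windows at 22000001 and 24800001 on either side were early on all arrays. Within the second, the window from 87400001 stood at -1.46 in KO and 0.64 in induced, with control at 0.37 and non-induced at 0.46. The differences between induced and KO were 1.23 ± 0.06 (SE over 178 probes) and 1.07 ± 0.07 (SE over 136 probes), against 0.26 and 0.09 between non-induced and control. Taking the reference difference off left 0.97 and 0.99, and chr6:35400001-37200000 kept 0.59 of its 0.82. Among the 10 largest, the remainder was past the threshold in these 3 regions.

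In the other 5 of the 10 largest, the arrays divided by slide. chr5:15200001-16600000 stood at -0.79 (control), -1.08 (KO), -0.24 (non-induced) and -0.09 (induced). chr19:38000001-40400000 stood at -0.32, -0.70, 0.35 and 0.27, and a second stretch of it from 54000001 to 55600000 at 0.15, 0.0036, 0.74 and 0.93. chr3:106200001-107200000 stood at -0.63, -1.0, -0.16 and -0.07, and chr10:19000001-21000000 at -0.56, -0.53, 0.11 and 0.37. Both arrays of slide 2 were above both arrays of slide 1 in all 5, and non-induced minus control was 0.47 to 0.67. The longest higher regions were at chr5:73600001-77400000, chr14:21800001-25600000 and chr2:36000001-39200000, with differences of 0.53, 0.44 and 0.42.

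In 3 further higher regions, chosen after their values were seen, signal was dim on the induced array. They lay at chr6:62000001-63800000, chr3:3800001-6200000 and chr14:96600001-98600000. Total signal of induced minus KO was -1.49, -1.36 and -1.36, and 46.9%, 51.7% and 50.0% of probes were well above background there, against 95.3%, 96.6% and 92.0% on KO. Their differences of 0.82, 0.74 and 0.61 were 0.78, 0.80 and 0.70 over the 60, 45 and 61 probes well above background on both arrays. One lower region, chr6:95600001-96600000, was dim too, with total signal of -1.35 and 69.6% of probes well above background on induced. Its difference of -1.01 was -0.80 over 55 such probes.

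**Figure D3:**
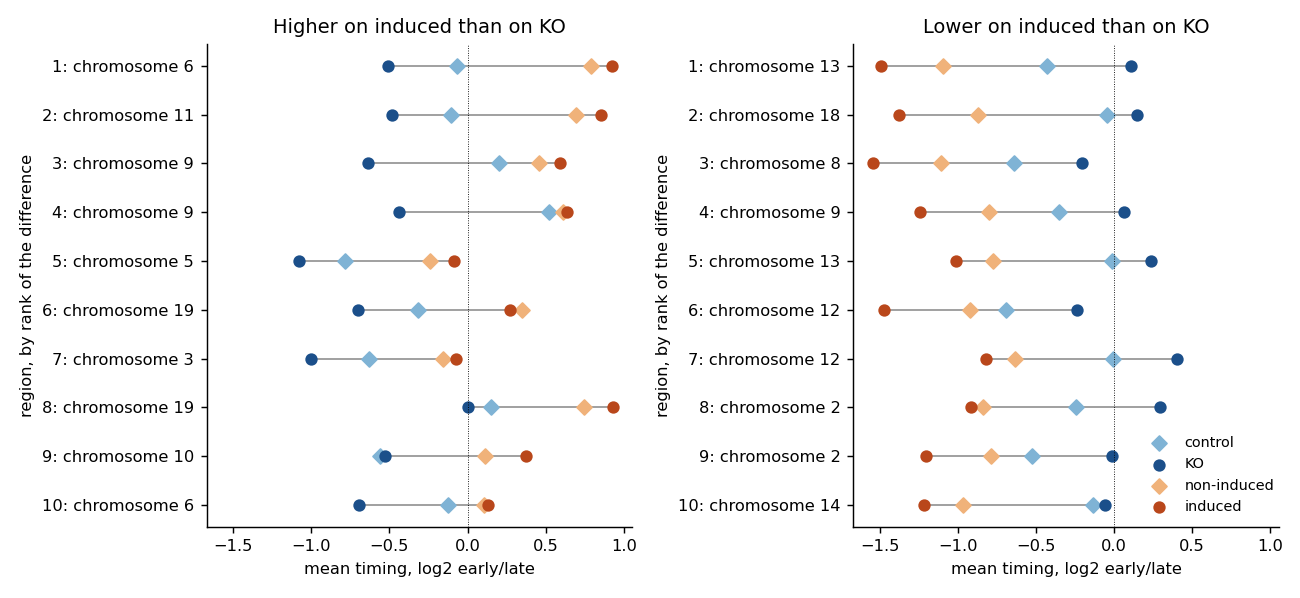
Mean timing (log2 early over late) of the 10 regions with the largest difference per direction among those with 5 or more called windows, on all 4 arrays; circles are mutants, diamonds references, and grey lines join KO and induced. KO and induced are at the ends of the range in most regions, with control beside KO and non-induced beside induced.

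The largest difference of a region lower on induced was at chr13:117400001-118400000. Timing was -0.43 (control), 0.11 (KO), -1.10 (non-induced) and -1.49 (induced). KO was the only array above 0, and induced minus KO was -1.60 ± 0.10 (SE over 64 probes). The region lay inside late DNA: 200 kb to its left and right, at 117200001 and 118400001, all 4 arrays were between -1.96 and -0.86. The window from 117800001 reached 0.81 in KO, against -0.14 in control, -0.83 in non-induced and -1.10 in induced, so the profile crossed 0 on KO only. Early signal was 0.65 in KO and -0.59 in induced cells, and late signal 0.48 and 0.91. chr18:68800001-70600000 stood at -0.04, 0.14, -0.87 and -1.37, a difference of -1.52 ± 0.08 (SE over 98 probes). Control and KO were near 0 there, and non-induced and induced were late. The window from 70000001 stood at 0.31 (control), 0.62 (KO), -0.79 (non-induced) and -1.38 (induced). chr8:84000001-85400000 was late on all arrays, at -0.64, -0.21, -1.11 and -1.55.

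chr9:82600001-86200000 stood at -0.35 (control), 0.06 (KO), -0.80 (non-induced) and -1.24 (induced). A single window separates it from the higher region of chromosome 9 that starts at 86400001. The order of KO and induced turned around there: in the window from 85600001 KO stood at 0.65 and induced at -0.85, and in the window from 87600001 KO stood at -1.31 and induced at 0.71. The differences were -1.30 ± 0.05 (SE over 167 probes) and 1.07.

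Chromosome 2 held 2 of the 10 largest lower regions. From 106000001 to 110400000, with 19 called windows, timing was -0.53, -0.01, -0.79 and -1.20 in control, KO, non-induced and induced cells. From 114200001 to 115800000 it was -0.25, 0.29, -0.84 and -0.91. Chromosome 12 also held 2, from 57200001 to 59000000 (-0.24 in KO, -1.48 in induced) and from 9400001 to 10600000 (0.40 and -0.82). The start of chromosome 13, from 3400001 to 6800000, stood at 0.24 in KO and -1.01 in induced cells, over 17 called windows. chr14:99400001-102400000 completed the 10, at -0.05 and -1.22. KO was the highest and induced the lowest of the 4 arrays in all 10 of these regions.

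The 3 longest lower regions were at chr10:25600001-31600000 (-0.26 in KO, -1.03 in induced), chr15:39400001-44600000 (-0.52 and -1.40) and chr1:10200001-14800000 (-0.35 and -1.26). Less the difference of the references, the 10 largest lower regions kept -1.01 to -0.33. In 8 of those 10 the remainder was past 0.58 in size. Of all 94 lower regions, 30 had such a remainder, and 5 of the 33 higher ones did. Non-induced minus control was past its own threshold in the same direction in 37 of the 94 and 10 of the 33, and in no region in the opposite one. The remaining 34 and 18 regions passed neither. By the same subtraction, 612 of the 11314 windows (5.41%) were called higher and 849 (7.5%) lower.

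**Figure D4:**
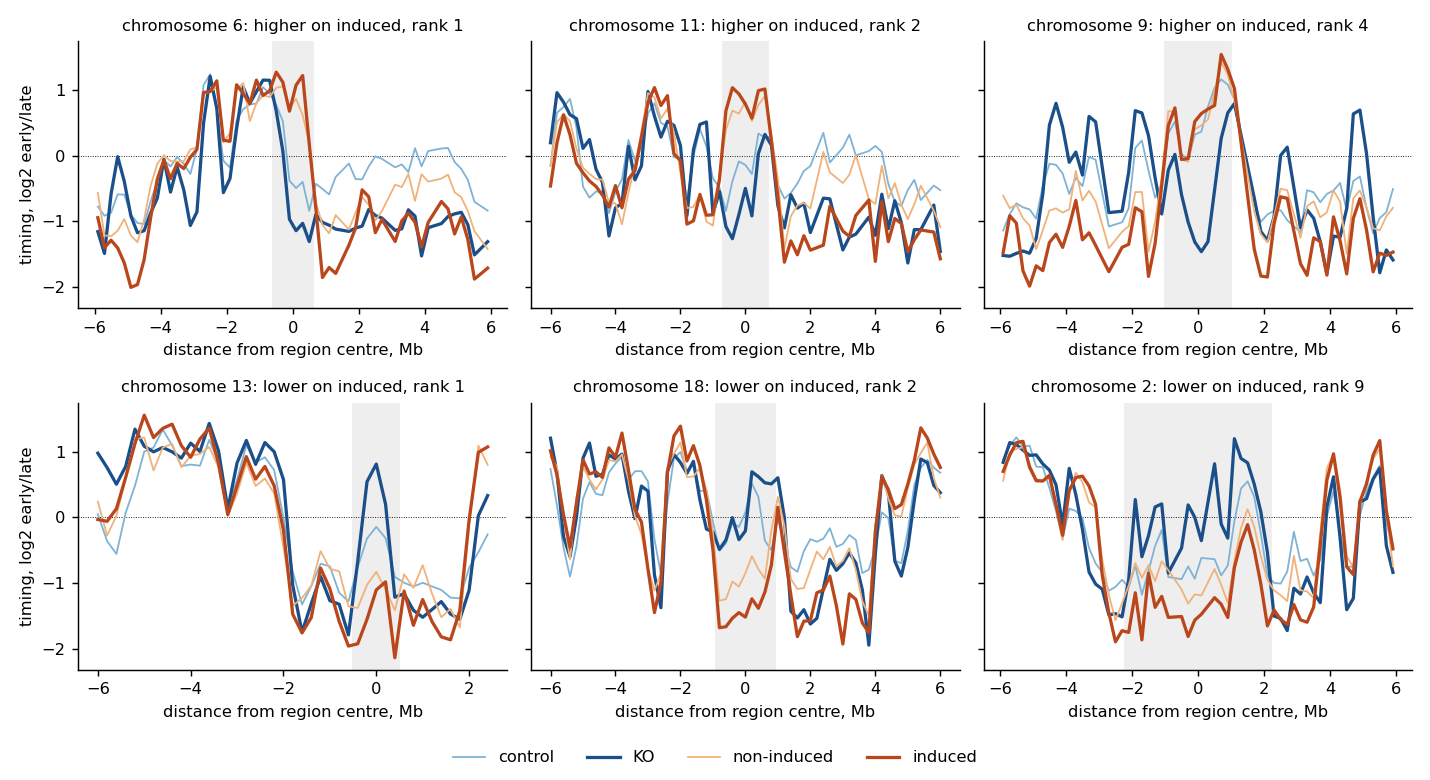
Timing (log2 early over late) of 200 kb windows on all 4 arrays, within 6 Mb of the centre of 6 named regions, against the distance from that centre in Mb; grey bands are the merged regions. In the lower row KO (dark blue) lies above induced (dark red) across the bands, and in the band of chromosome 9 KO lies below the other 3 arrays.

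Runs of at least 3 windows with opposite states numbered 74 for early on KO and late on induced, and 56 for the reverse. The longest was 2.4 Mb, so no opposite run approached the length of the large shared domains. The longest runs early on KO and late on induced were at chr10:25600001-27800000 (0.31 in KO, -0.70 in induced), chr13:5000001-6800000 (0.57 and -0.78) and chr19:59000001-60800000 (0.36 and -0.58). chr16:96600001-98400000 (0.31 and -0.60), chr10:16200001-18000000 (0.55 and -0.49) and chr2:108200001-110000000 (0.33 and -0.92) were of the same 1.8 Mb as the latter pair. In the reverse direction, the longest were at chr9:22600001-25000000 (-0.77 in KO, 0.51 in induced), chr10:19200001-21000000 (-0.56 and 0.36) and chr9:86600001-88200000 (-0.74 and 0.51). chr11:34400001-35800000 (-0.49 and 0.85), chr18:52400001-53800000 (-0.22 and 0.35) and chr18:79000001-80400000 (-0.43 and 0.33) were next, at 1.4 Mb each. At chr18:52400001-53800000, non-induced stood at 0.66 and control at 0.05, so the references differed by no less than the mutants.

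Each mutant can also be set against the reference of its own slide, in comparisons that share no array. KO minus control was called later in 2490 windows (22%) and induced minus non-induced in 1292 (11.4%), at thresholds of 0.45 and 0.52 set by the range of each reference, so the counts are not on 1 scale. Of these, 726 windows (145.2 Mb) were later in both, which is 29.2% of the KO ones and 56.2% of the induced ones. In these windows timing was -0.45 (control), -1.31 (KO), -0.67 (non-induced) and -1.44 (induced). The mean of induced minus KO was -0.14, and by the calling rule 11 of the 726 windows were higher and 49 lower on induced than on KO (8.26% in all). The count of windows later in both was 128 after the arrays were scaled to 1 spread, 79 with quantile normalization, 71 with normexp (a background correction) and 194 over probes well above background.

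The longest region later in both, of 5.0 Mb with 8 called windows, was chr8:99000001-104000000. Its timing was -0.07 (control), -1.18 (KO), -0.37 (non-induced) and -0.91 (induced). chr15:17800001-21400000 stood at -0.27, -1.09, -0.39 and -0.97 in the same order, and chr14:107200001-110800000 at -0.01, -1.56, -0.30 and -1.14. In all 3 induced was above KO. chr6:76800001-80200000 stood at -0.42, -1.19, -0.69 and -1.24, and chr2:85800001-89200000 at 0.04, -1.14, -0.40 and -1.08. That each mutant was below the reference of its own slide follows from the choice of these regions. Both mutants were also below the reference of the other slide in all 5 regions. Many probes there were dim on induced: 41.6% to 64.9% were well above background, against 73.5% to 95.2% on KO. The part of dim signal and of array range in these levels was not tested.

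Windows later in KO only numbered 1762, with mean timing of -0.29 (control), -1.11 (KO), -0.52 (non-induced) and -0.88 (induced). Windows later in induced only numbered 534, and these were already late, at -0.78, -1.05, -0.89 and -1.60. Windows earlier in KO only numbered 885, at -0.16, 0.54, 0.07 and 0.05. Earlier windows numbered 919 (8.12%) in KO and 54 (0.477%) in induced, with 2 in both, so their overlap is too small to read.

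The difference between the mutants was also followed along the range of timing, with windows ranked by the mean of control and non-induced, which enter neither mutant value. From the latest to the earliest quintile, induced minus KO was -0.35, -0.17, 0.02, 0.12 and 0.23. The SD over windows was 0.24 in the earliest and 0.60 in the middle quintile. Non-induced minus control was -0.22, -0.14, -0.06, 0.13 and 0.04 in the same order. The latest quintile was below 0 on all 19 chromosomes, at -0.45 to -0.23, and the earliest was above 0 on all 19. With arrays scaled to the same spread the latest quintile was at -0.12 and the earliest at 0.068. Scaling makes the ranges of the arrays equal, so a smaller trend follows in part from the scaling itself. The part of array range in the trend was not tested. Of the windows called higher, 308 lay in the middle quintile (13.6% of its windows), 265 in the fourth (11.7%) and 14 in the latest (0.619%). Of those called lower, 477 lay in the latest (21.1%), 323 in the middle (14.3%) and 6 in the earliest (0.265%). The middle quintile thus held about as many windows of either direction. In the latest quintile, 92.4% of probes were well above background on KO and 80.8% on induced.

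Windows higher on induced lay nearer to domain edges than windows as a whole. Their median distance to the nearest boundary of control or non-induced was 1 window, against 3 windows for all windows and for those lower on induced. Within 2 windows of such a boundary lay 63.9% of the higher, 46.2% of the lower and 45.1% of all windows. Boundaries are crossings of 0. The median of the references' mean timing was 0.11 in the higher, -0.67 in the lower and -0.17 in all windows. No comparison with windows of like timing was made.

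**Figure D5:**
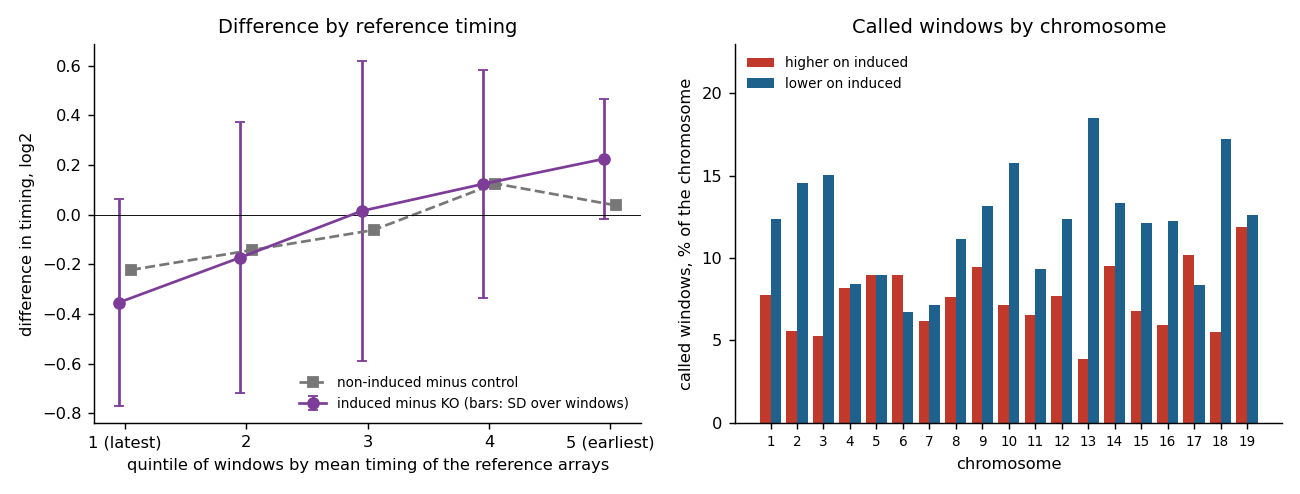
Left, mean difference in timing (log2) by quintile of windows ranked on the reference arrays, for induced minus KO (bars are SD over windows) and non-induced minus control; right, percent of a chromosome's windows called higher or lower on induced. The difference goes from -0.35 in the latest to 0.23 in the earliest quintile, and chromosome 13 has the highest share of lower windows.

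Chromosomes differed in these shares. Chromosome 13 had the lowest mean difference, -0.19 ± 0.50 (SD over 546 windows), with 18.5% of its windows lower and 3.85% higher on induced. Its mean timing was -0.12 in KO and -0.30 in induced cells. Chromosome 18 followed at -0.14, with 17.2% lower and 5.50% higher, and chromosome 2 at -0.11. Chromosome 11 had the highest mean, 0.05, at 0.09 in KO and 0.15 in induced cells. Chromosomes 6, 7 and 17 had mean differences of 0.03, 0.03 and 0.04, and chromosomes 6 and 17 had more higher than lower windows, 63 against 47 and 45 against 37. Total signal of induced minus KO was -0.34 on chromosome 6, the lowest of the 19 autosomes, and 0.18 on chromosome 19, the highest. The first 5 Mb of chromosomes, next to the centromere in the mouse, had a mean of -0.13, with 15.7% of 446 windows lower and 5.16% higher. The last 5 Mb had a mean of -0.04, with 13.0% lower and 5.0% higher. Outside both ends the mean was -0.03, with 11.8% and 7.60%. Non-induced minus control was -0.10 in the first 5 Mb and -0.05 outside both ends.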

How the data were processed

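Each of 4 arrays of 2 colours held 174305 genomic spots. Signals come from Agilent Feature Extraction 11.5.1.1 per the file headers, which place probes on build mm9 (the submitters' processing notes name version 9.1). The deposited processed signals are intensities, background-subtracted and scaled by 1 linear dye factor per channel. The log10 ratio deposited by the authors is late over early, and it was exactly equal, with no tolerance, in the series' value table in all 174305 spots of each array. Other deposited columns are quality flags, such as well above background.

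Timing is log2 of early over late processed signal. Control spots were dropped, as were outlier-marked autosomal spots (151 to 427 an array). Repeat spots were averaged per probe, with no loess or quantile step. Across 5 spots of each of 1000 probes, the SD of timing had a median of 0.12 to 0.16 by array, which is technical error within an array only.

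The comparison, its members and the gene lists were chosen with earlier results of these data known. Named regions are the 10 of largest size and the 3 longest per direction among regions of 5 or more called windows, and the 5 longest shared, opposite and later-in-both ones, with ties in length named too. Genes were not placed, because the gene table used here is of another build; the 23 gene lists were not analysed here. The calling step was also tested on the KO values with shuffled probe noise and known differences added. Tools were limma 3.58.1 under R 4.3.3 (normexp and loess alternatives) and, under Python 3.11.15, pandas 2.3.3 and numpy 2.4.6.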

Additional observations from a re-analysis of the deposited data

Results flagged for a closer look

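Of all windows, 32 were earlier in KO than in control and later in induced than in non-induced cells. Their mean timing was -0.70 (control), -0.02 (KO), -0.94 (non-induced) and -1.61 (induced). The merged region with most of them was chr12:57600001-58600000, with 4 called windows, at -0.76, -0.27, -0.93 and -1.63. The longest, of 1.2 Mb with 3 called windows, was chr9:83200001-84400000, at -0.35, 0.09, -0.62 and -1.12. The reverse, later in KO and earlier in induced cells, held for 2 windows. With 1 array per group, these opposite directions were not tested. With arrays scaled to the same spread, 2 of the former kind of window were called, and 18 over probes well above background.

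Outside the autosomes, 107 of 122 Y chromosome probes were well above background on the KO array, against 50 on control, 53 on non-induced and 41 on induced.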

How the results depend on the processing

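Precision is limited by 1 array per group. No paired analysis was possible because each group has 1 array, and no replicate could be left out. The gene lists and their alternatives were not run, since probes are not paired with genes. All 26 named regions kept their direction under scaling, quantile normalization and normexp, and their side of a threshold set anew from the KO range of each setting. Against the fixed 0.58, chr15:39400001-44600000 (-0.51), chr10:25600001-31600000 (-0.52) and chr6:35400001-37200000 (0.58, below it before rounding) fell short with normexp. Counts not given below stayed within 1.5 times under the alternatives run.

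Windows higher on induced numbered 1282 with normexp, 1313 with 100 kb and 318 with 500 kb windows, and 377 and 1628 at thresholds of 0.35 and 0.15 of the range, against 837. Windows lower numbered 845 over odd and 868 over even probes, 579 with 500 kb windows and 759 at the threshold of 0.35, against 1356. Leaving out windows of unequal total signal, chosen after seeing the data, gave 627 and 974. Windows late on both numbered 2958 over odd and 2996 over even probes, where fewer windows had 5 probes. Shared boundaries numbered 372 over even probes, 869 without smoothing and 357 with a running mean of 9 windows, against 571. Those with the early side further on induced numbered 134, 138 and 142 over odd probes, even probes and that running mean, against 234, and those further on KO 73 over even probes, against 121.

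Regions of 5 or more windows higher on induced numbered 70 with normexp, against 33. Lower ones numbered 60 after scaling, 59 with quantile normalization, 41 over odd and 44 over even probes, against 94. Less the difference of the references, 612 windows (5.41%) were higher and 849 (7.5%) lower; the former were 920 with normexp, 394 over odd and 380 over even probes. The latest quintile was at -0.12 after scaling, -0.12 with quantile normalization and -0.21 with normexp, and the earliest at 0.068, 0.054 and 0.15. Latest minus earliest was -0.19, -0.17 and -0.36, against -0.58.

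In the order of scaling, quantile normalization, normexp, well measured probes and the linear trend removed, windows later in both mutants numbered 128, 79, 71, 194 and 113. Those later in induced only numbered 75, 52, 180, 308 and 67, against 534. Those later in KO only were 981 with quantile normalization and 1065 with the trend removed, against 1762. Earlier in KO and later in induced were 2, 1, 9, 18 and 2 windows, against 32.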
